A study of Rattus norvegicus with 6 samples.

Results

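The genes described here encode the machinery with which a cell docks and fuses its secretory granules: SNAREs, the proteins that handle SNAREs, Rab GTPases, synaptotagmins and granule carriers. A list of 37 such genes was matched by symbol to the deposited table, and all 37 were found among its 22601 genes. Of the 37, 32 had a mean of at least 0.5 FPKM (fragments scaled to gene length and library size) over the 6 libraries and were tested together with every other gene above that level, 10410 in all. The other 5 were Snap25 and Syt9, listed at 0 in every library, and Syt2, Syt3 and Mlph, with 3 reads or fewer in any library. The RNA came from RBL-2H3, a rat basophilic leukemia line of wild-type genotype, as labelled, that stands in for mast cells in many studies of degranulation and is 1 leukemic line rather than primary mast cells. The control group was 3 libraries of cells without PIO. In the PIO group, 3 libraries, cells received 10 µM of the PPARγ agonist that the series calls PIO, for 6 h. No stimulation of the IgE receptor is mentioned in the labels for either group, no vehicle or time is recorded for the control cells, and separate cultures are not stated, so p-values here reflect spread among these libraries that may be technical.

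Granules fuse when an R-SNARE on the granule membrane zips together with Q-SNAREs (syntaxins and SNAP proteins) on the target membrane. Munc18 proteins hold syntaxins ready, Munc13-4 tethers and primes the granule, and NSF with its adaptor alpha-SNAP pulls spent SNARE complexes apart for reuse. Rab GTPases decide which membrane a granule meets, and the paralogs Rab27a and Rab27b, both known from mast cells, recruit the effectors that carry and dock granules. Many synaptotagmins are calcium sensors of regulated release.

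The library totals that scaled the FPKM were 14048202 to 15084729 reads, and 9824 to 9876 genes per library reached 1 FPKM. Markers of mast cells and basophils matched the labelled line, with 13 of 16 at 1 FPKM or more. Their sum lay between 4860 and 5060 FPKM in the control libraries and between 4900 and 5050 FPKM with PIO, while Tpsab1 and Mcpt8 were listed at 0. Of 12 neuronal and neuroendocrine markers, which share much of this machinery, 3 reached 1 FPKM, namely Snap91, Syp and Tubb3. Their summed level was 14.5 to 15.0 FPKM in control and 15.2 to 16.7 FPKM with PIO, and Nefl and Elavl3 were listed at 0. No macrophage marker of 6 and no T or B cell marker of 6 reached 1 FPKM. Col3a1 did so among 6 fibroblast and adipocyte markers. Control replicate 3 stood apart at the stress-response gene Atf4, with 617 FPKM beside 277 and 279 in the other control libraries, which was noticed after its values were seen. The median deviation of the 32 tested genes from their own means was small in every library, from -0.011 to 0.021 on the log2 scale, and was highest in that library.

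None of the 32 tested genes changed past an adjusted p of 0.05 (limma on log2(FPKM + 0.5), Benjamini-Hochberg adjustment over all genes tested), where 4 of the 10410 genes (0.0384%) did. Limma-voom on the recovered reads called none of the 32 either. The smallest adjusted p was 0.212, that of Rab27b (limma, Benjamini-Hochberg). At an unadjusted limma p under 0.05 there were 7 of the 32 (21.9%), beside 12.5% of all genes tested. All 3 PIO values lay above all 3 control values for 4 of them (12.5%), namely Stx6, Napa, Rab11a and Syt11, beside 10.5% of all genes. All 3 lay below for 3 (9.38%), namely Rab27a, Rab27b and Nsf, beside 8.09% of all genes. In sign, 17 were higher with PIO and 15 lower. Their median log2 fold change was 0.01, as against 0.009 over all genes tested. Log2 fold changes ran from -0.47 for Rab27b to 0.21 for Stx6. With every library scaled to the same FPKM sum (TPM), 15 of the 32 were higher, because Cplx2 and Scamp1 turned, and the share of all genes that were higher went from 54.0% to 42.5%. In bulk RNA, fewer cells of a type and less RNA per cell cannot be told apart.

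**Figure D1:**
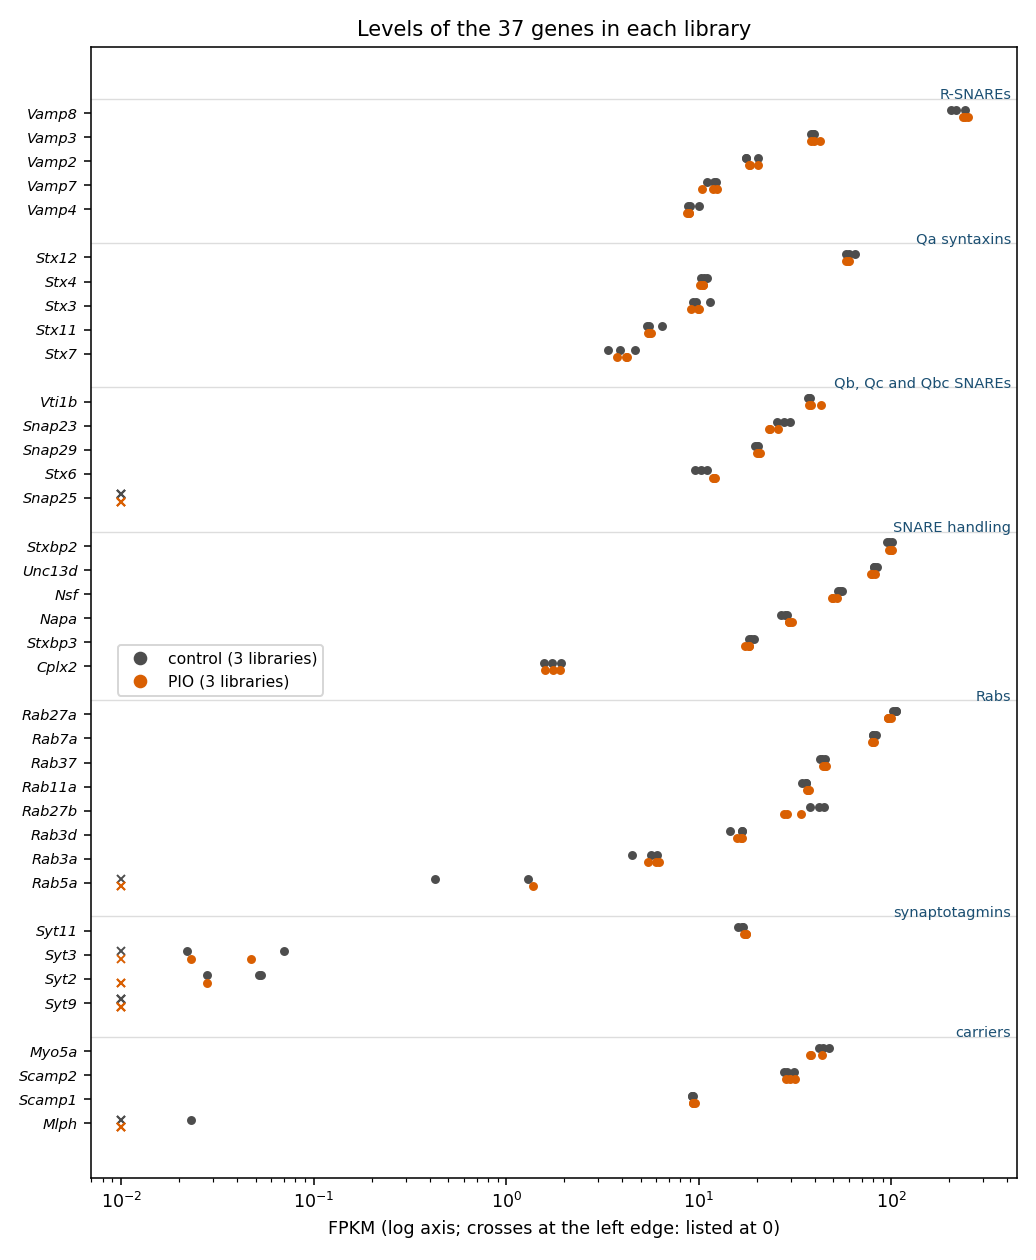
FPKM (log axis) of the 37 genes in each of 3 control and 3 PIO libraries, grouped by role and ordered by mean within a group; points are libraries, and crosses at the left edge are values of 0. Vamp8, Stx12, Vti1b, Stxbp2, Rab27a, Syt11 and Myo5a lead their groups, and the control and PIO points of most genes lie on each other.

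Among R-SNAREs, Vamp8 had the highest level per length in all 6 libraries. Vamp8 (GeneID 83730) encodes the endobrevin of endosomes and granules, which takes part in mast cell degranulation. Its level was 240.5, 205 and 217 FPKM in control replicates 1 to 3 and 235, 242 and 250.5 FPKM in PIO replicates 1 to 3. The PIO values were the more uniform, but control replicate 1 lay among them, so the groups overlapped. The means were 221 ± 18.2 and 243 ± 7.61 FPKM (SD, n = 3 per group), and the log2 fold change was 0.14 (SE 0.06, limma adjusted p = 0.387). The other control values both lay under the lowest PIO value. Vamp8 made up 72.4% to 76.4% of the FPKM of the 5 R-SNAREs.

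That lead is one of reads per base. Vamp8 had a counted length of 301 bases, the length that turns its reads into FPKM, whereas Vamp3, next in order, had 1683 bases. In reads the ratio of Vamp8 to Vamp3 was 1.05, and Vamp8 exceeded Vamp3 in 4 of 6 libraries. In FPKM the same ratio was 5.86. Vamp3, the cellubrevin of recycling endosomes, averaged 39.5 FPKM (range 38.3 to 42.4). Vamp2, the synaptobrevin of synaptic vesicles, averaged 18.7 FPKM (17.6 to 20.2). Vamp7, an R-SNARE of late endosomes and lysosomes, averaged 11.7 FPKM (10.4 to 12.4), and Vamp4, of the trans-Golgi network, 9.03 FPKM (8.63 to 10.0). Each exceeded the next in all 6 libraries, with ranges that did not meet. Their log2 fold changes were small, 0.04 for Vamp3 and for Vamp2, -0.03 for Vamp7 and -0.07 for Vamp4, and the smallest limma adjusted p among these 4 was 0.633. The log2 ratio of Vamp3 to Vamp2 differed by 0.001 between the group means.

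Of the 5 listed Qa syntaxins, Stx12 stood well above the rest. Outside the list, and named after their values were seen, the syntaxins Stx5 and Stx18 averaged 30.4 and 29.0 FPKM. Stx12 encodes syntaxin 12, also called syntaxin 13, a SNARE of recycling endosomes. It had 60.5, 64.5 and 58.3 FPKM in the control libraries and 59.6, 58.1 and 60.2 FPKM with PIO, all within the control range save PIO replicate 2, which was a little lower. Its log2 fold change was -0.04 (SE 0.04, limma adjusted p = 0.703), and its mean over the 6 libraries was 5.72 times that of Stx4.

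The plasma membrane syntaxins were at a lower level and could not be put in order. Stx4, the syntaxin that pairs with Snap23 in mast cell exocytosis, averaged 10.5 FPKM (10.2 to 11.1). Stx3, a syntaxin of apical membranes and granules, averaged 9.89 FPKM (9.11 to 11.5), so that the 2 ranges overlapped, and Stx4 was the higher in 5 of 6 libraries. In reads Stx3 was the higher in every library, its counted length being 7833 bases against 3097 for Stx4. Stx11, which works in cytotoxic lymphocytes, averaged 5.66 FPKM, and Stx7, of late endosomes, 4.02 FPKM, with ranges apart, although in reads Stx7 was the higher in every library (ratio of Stx11 to Stx7 0.717). Between groups these 4 differed by -0.06 (Stx3) to 0.03 (Stx7) on the log2 scale, and the control and PIO values of each overlapped (smallest limma adjusted p = 0.777).

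The Qb, Qc and Qbc SNAREs held 2 of the 7 genes under an unadjusted limma p of 0.05, and these lay in opposite directions. Snap23 (GeneID 64630) encodes the SNAP protein that most non-neuronal cells use at the plasma membrane. It had 25.5, 27.7 and 29.7 FPKM in control replicates 1 to 3 and 25.7, 23.1 and 23.3 FPKM in PIO replicates 1 to 3. PIO replicates 2 and 3 lay below every control value, while PIO replicate 1 lay just above control replicate 1. The means were 27.6 ± 2.07 and 24.0 ± 1.43 FPKM (SD, n = 3 per group), with a log2 fold change of -0.20 (SE 0.07, limma adjusted p = 0.34).

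Stx6 (GeneID 60562), a Qc-SNARE of the trans-Golgi network and endosomes, was the largest difference upward. It had 10.2, 11.0 and 9.57 FPKM in the control libraries and 11.9, 12.0 and 12.1 FPKM with PIO. The 3 PIO values lay close together and above all control values. The means were 10.3 ± 0.733 and 12.0 ± 0.115 FPKM (SD, n = 3 per group), 16.5% higher with PIO, with a log2 fold change of 0.21 (95% interval 0.073 to 0.354, limma adjusted p = 0.304). Reads per library were 381, 384 and 349 in control and 411, 424 and 420 with PIO.

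The remaining SNAREs of this group were steadier. Vti1b, a Qb-SNARE of late endosomes, led it in FPKM with 37.1, 37.9 and 37.3 FPKM in control and 37.1, 43.1 and 38.3 FPKM with PIO. Only PIO replicate 2 stood out. In reads Vti1b was below Snap23 in every library (ratio 0.599). Between groups the log2 fold change was 0.08 (SE 0.06, limma adjusted p = 0.596). Snap29, a SNAP protein of inner membranes and autophagosomes, averaged 20.2 FPKM (19.5 to 20.8; log2 fold change 0.04, limma adjusted p = 0.712). Snap25, the SNAP protein of neurons, was listed at 0, which allows up to 3 reads per library from counting error alone; a listed 0 may also mean that reads were not assigned. In FPKM Snap23 stood at 1.31, 1.39 and 1.46 times Snap29 in the control libraries and at 1.25, 1.15 and 1.12 times with PIO. In reads the mean ratio was 0.9, and Snap23 was the higher in 1 of 6 libraries. The PIO ratios all lay below the control ratios, by 0.235 on the log2 scale between group means, a description without a test.

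The listed proteins that handle SNAREs ranked as Stxbp2, Unc13d, Nsf, Napa, Stxbp3 and Cplx2. Each was above the next in FPKM in all 6 libraries, with ranges apart. In reads Unc13d exceeded Stxbp2 in every library, with a ratio of Stxbp2 to Unc13d of 0.765, so the top of this order rests on the counted lengths. Stxbp5, outside the list and named after its values were seen, was above all of them at 226.6 FPKM (216.4 to 236.0). Its log2 fold change was -0.08 (limma adjusted p = 0.375). Stxbp2 (Munc18-2), the Munc18 protein that works with syntaxins 3 and 11 in granule release, had 97.3, 95.04 and 100.3 FPKM in control and 97.5, 99.98 and 101 FPKM with PIO. The groups overlapped almost wholly (log2 fold change 0.03, SE 0.04, limma adjusted p = 0.746). Unc13d (Munc13-4), the Rab27 effector that primes granules, averaged 81.3 FPKM (78.4 to 84.7; log2 fold change -0.04, limma adjusted p = 0.646). Of the other Munc13 genes, which are outside the list and named after their values were seen, Unc13a averaged 1.28 FPKM, Unc13b 0.0453 FPKM, and Unc13c was listed at 0. Stxbp3 (Munc18-3, the partner of syntaxin 4) averaged 18.3 FPKM (17.3 to 19.3; log2 fold change -0.07, limma adjusted p = 0.575). Cplx2, the complexin of mast cells, had 49 to 64 reads per library, 1.74 FPKM on average, and a log2 fold change of 0.00 (SE 0.10, limma adjusted p = 0.997).

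The pair that recycles SNAREs differed in direction. Nsf, the ATPase that takes SNARE complexes apart, had 52.9, 54.3 and 55.4 FPKM in control and 52.1, 49.9 and 49.3 FPKM with PIO. All PIO values were the lower, though PIO replicate 1 and control replicate 1 were nearly level. The means were 54.2 ± 1.27 and 50.4 ± 1.46 FPKM (SD, n = 3 per group), with a log2 fold change of -0.10 (SE 0.04, limma adjusted p = 0.37). Napa, which encodes alpha-SNAP, the adaptor that brings Nsf to SNAREs, had 28.1, 26.7 and 28.7 FPKM in control and 29.4, 29.5 and 30.4 FPKM with PIO. All PIO values were the higher (27.8 ± 1.02 and 29.7 ± 0.531 FPKM, SD, n = 3 per group; log2 fold change 0.10, SE 0.04, limma adjusted p = 0.411).

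Rab27a was the most abundant of the 8 Rab genes on the list, in FPKM and in reads. Ranks were also taken over 53 Rab genes, those listed and those of the wider list described below. Among these Rab27a was the fourth by mean FPKM, after Rab5c (174 FPKM), Rab1a (146 FPKM) and Rab8a (124 FPKM). Rab27a (GeneID 50645) encodes the Rab that ties granules to the actin cortex through its effectors, and its loss in people causes Griscelli syndrome. It had 106, 106 and 102 FPKM in control replicates 1 to 3 and 96.1, 99.0 and 96.4 FPKM in PIO replicates 1 to 3. The gap between the lowest control and the highest PIO value was small, but the groups did not overlap. The means were 105 ± 2.39 and 97.2 ± 1.60 FPKM (SD, n = 3 per group), a difference of -7.19%, with a log2 fold change of -0.11 (95% interval -0.184 to -0.030, limma adjusted p = 0.332).

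Rab27b (GeneID 84590), its paralog, had the largest difference of the 32 tested genes in either direction. It had 37.9, 42.3 and 44.9 FPKM in control replicates 1 to 3 and 33.8, 28.9 and 27.7 FPKM in PIO replicates 1 to 3. All PIO values lay below all control values, with PIO replicate 1 and control replicate 1 nearest each other. The means were 41.7 ± 3.57 and 30.1 ± 3.24 FPKM (SD, n = 3 per group), a difference of -27.8%, and the log2 fold change was -0.47 (95% interval -0.661 to -0.270, limma adjusted p = 0.212). Reads were 2402, 2511 and 2792 in control and 1996, 1737 and 1640 with PIO. The coefficient of variation over the 6 libraries, which includes the difference between the groups, was 19.6%, where counting error alone gives 2.14%.

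The promoters of this pair are shown because Rab27a and Rab27b are set against each other throughout. Both are RefSeq sequence of the assembly GRCr8, the 250 bases before the annotated start, written 5′ to 3′ along the gene. The Rab27a window is chr8:82663123-82663372 on the plus strand and the Rab27b window chr18:65938584-65938833 on the minus strand. Capitals would mark AGGTCA or its complement TGACCT, the half-site that PPARγ and its partner RXR bind as a repeat, or the E-boxes CACGTG and CATGTG (complement CACATG), which MITF and related factors bind. Neither window holds one of these, so both are in lower case throughout.
Rab27a: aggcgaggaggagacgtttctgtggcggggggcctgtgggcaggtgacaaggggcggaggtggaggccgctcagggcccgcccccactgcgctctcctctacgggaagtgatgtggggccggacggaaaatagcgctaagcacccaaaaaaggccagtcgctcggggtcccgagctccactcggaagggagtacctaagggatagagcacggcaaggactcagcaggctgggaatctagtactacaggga
Rab27b: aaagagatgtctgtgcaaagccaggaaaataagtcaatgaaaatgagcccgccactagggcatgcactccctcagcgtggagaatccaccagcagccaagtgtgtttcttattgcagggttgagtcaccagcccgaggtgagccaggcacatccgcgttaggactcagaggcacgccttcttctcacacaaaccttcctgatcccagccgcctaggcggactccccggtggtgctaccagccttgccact
Their GC content was 63.6% for Rab27a and 56.0% for Rab27b. No match says only that these letters are not in this window.

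The ratio of the paralogs within a library was the 1 comparison of isoforms given a test. Rab27b stood at 0.357, 0.399 and 0.441 times the FPKM of Rab27a in control replicates 1 to 3 and at 0.352, 0.291 and 0.287 times in PIO replicates 1 to 3. The highest PIO ratio was just under the lowest control ratio, and the other PIO ratios were well below. On the log2 scale the ratio was -1.32 ± 0.15 in control and -1.68 ± 0.16 with PIO (SD, n = 3 per group), a difference of -0.36. An exact two-sided permutation test gave p = 0.1, which is the smallest p that 3 against 3 libraries allow. As a share of the FPKM of both paralogs, Rab27b made up 26.3%, 28.5% and 30.6% in control and 26.0%, 22.6% and 22.3% with PIO.

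**Figure D2:**
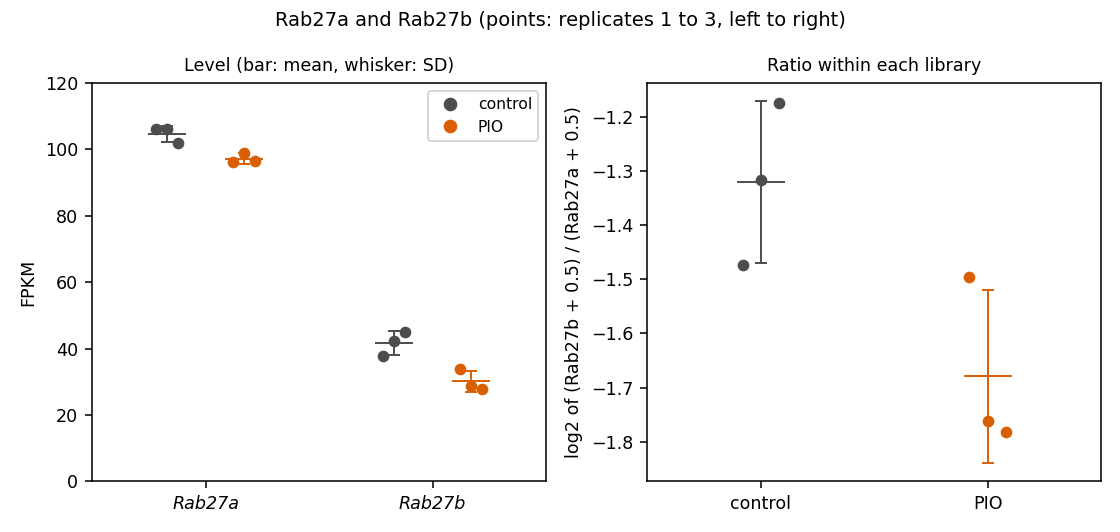
Left, FPKM of Rab27a and Rab27b in each library; right, the log2 ratio of Rab27b to Rab27a (0.5 FPKM added to each) within each library. Points are replicates 1 to 3 from left to right, wide bars are means and whiskers SD (n = 3 per group); the groups do not overlap in either gene, and in the ratio PIO replicate 1 (-1.495) lies next to control replicate 1 (-1.473).

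The other Rabs of the list were close to level between groups. Rab7a, of late endosomes and lysosomes, averaged 80.9 FPKM (79.8 to 83.2; log2 fold change -0.01, limma adjusted p = 0.892). Rab37, a Rab of mast cell granules, averaged 44.4 FPKM (42.6 to 45.7; 0.03 on the log2 scale, limma adjusted p = 0.728), and in reads it exceeded Rab7a in every library (ratio of Rab7a to Rab37 0.754). Rab11a, which directs recycling endosomes, had 35.8, 34.3 and 36.0 FPKM in control and 36.9, 36.3 and 37.5 FPKM with PIO. All its PIO values were the higher by a narrow margin (log2 fold change 0.06, SE 0.04, limma adjusted p = 0.537). Over the 6 libraries Rab11a (36.2 FPKM) and Rab27b (35.9 FPKM) were not separated in FPKM. On that scale Rab27b was above Rab11a in each of the 3 control libraries and below it in each of the 3 PIO libraries. In reads Rab27b was the higher in every library (ratio of Rab11a to Rab27b 0.54), so this change of order rests on the counted lengths.

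Of the Rab3 pair, which serve regulated secretion, Rab3d averaged 16.2 FPKM and Rab3a 5.65 FPKM, and Rab3d was the higher in all 6 libraries. Their log2 fold changes were 0.03 (limma adjusted p = 0.845) and 0.12 (limma adjusted p = 0.647), and the groups overlapped for both. Rab5a, a Rab of early endosomes, had at most 3 reads in any library over a counted length of 156 bases. The gene named Rab5al1, looked up after these values were seen, had 259 to 334 reads. Its sequence was not compared with that of Rab5a, and whether reads of Rab5a were counted there was not tested. With so few reads, the level of Rab5a and its log2 fold change (-0.28, SE 0.59) are uncertain. The other Rab5 genes were well measured, Rab5c at 174 FPKM and Rab5b at 48.6 FPKM.

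Syt11 was the only synaptotagmin of the 4 on the list with a measurable level, and held at least 99.4% of their summed FPKM in each library. Syt11 is one of the synaptotagmins that do not bind calcium. It had 16.7, 17.0 and 15.9 FPKM in control and 17.6, 17.5 and 17.2 FPKM with PIO. The PIO values lay above the control values by little (16.5 ± 0.584 and 17.4 ± 0.221 FPKM, SD, n = 3 per group; log2 fold change 0.07, SE 0.05, limma adjusted p = 0.539). Syt2, a fast calcium sensor of neurons, had 2, 1 and 2 reads in control and 0, 0 and 1 with PIO. Syt3 had 1, 3 and 0 and then 2, 1 and 0 reads. Syt9 was listed at 0. Neither Syt2 nor Syt3 exceeded the floor of 3 reads in any library, so no difference was detectable at this depth. Of the 17 synaptotagmin genes looked up, on this list and the wider one, Syt11 alone reached 1 FPKM. In every library 15 were under 3 reads, and 9 were at 0 throughout, Syt1 among them.

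Among granule carriers, Myo5a came first. Myo5a encodes myosin Va, the actin motor that moves granules under the plasma membrane. It had 42.1, 47.7 and 44.0 FPKM in control and 43.6, 37.9 and 38.2 FPKM with PIO. PIO replicates 2 and 3 were below all control values and PIO replicate 1 was among them (44.6 ± 2.87 and 39.9 ± 3.21 FPKM, SD, n = 3 per group; log2 fold change -0.16, SE 0.07, limma adjusted p = 0.389). Melanophilin, encoded by Mlph, which links Rab27a to myosin Va in melanocytes, had 1 read in control replicate 3 and none elsewhere. Scamp2 and Scamp1, secretory carrier membrane proteins, averaged 29.5 and 9.34 FPKM, and their log2 fold changes were 0.03 and 0.02 (smallest limma adjusted p = 0.826). Scamp1 was among the most uniform, from 9.25 to 9.60 FPKM.

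**Figure D3:**
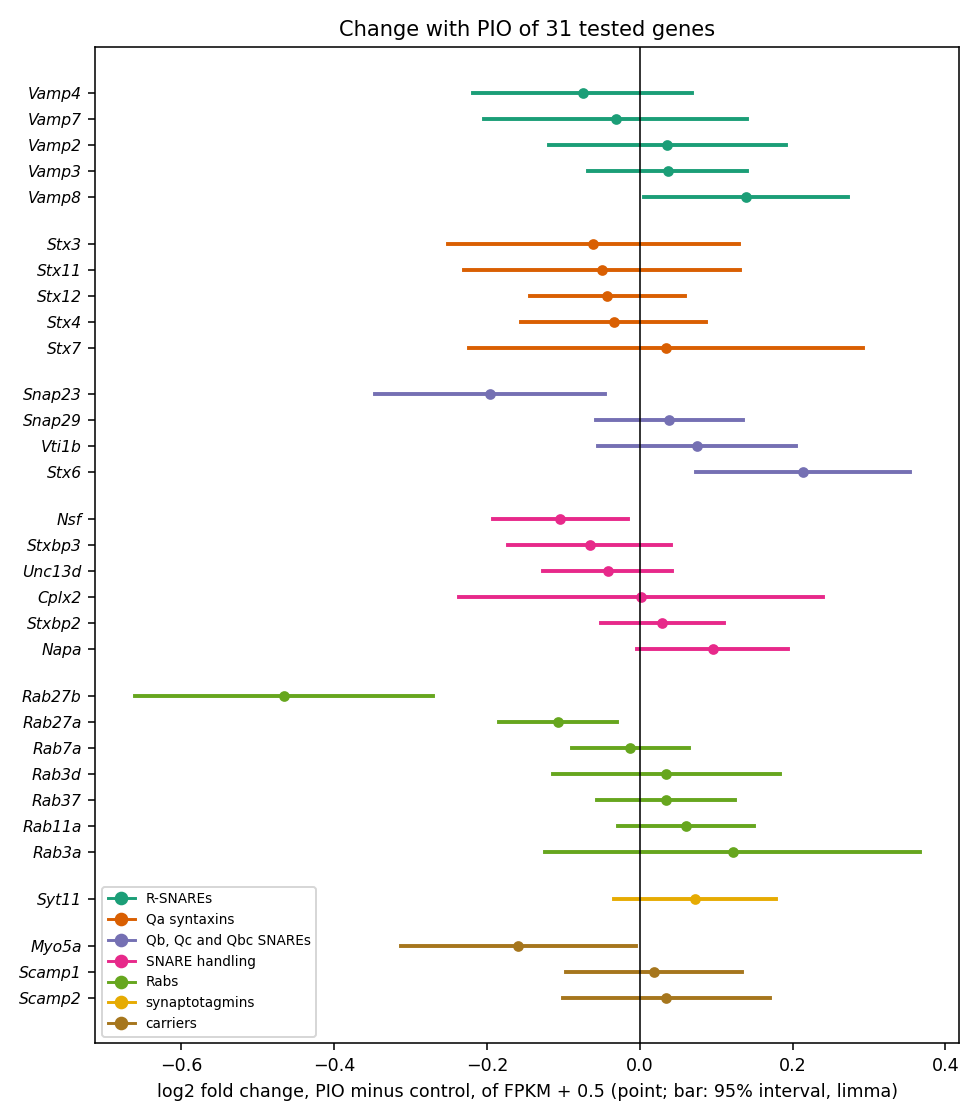
Log2 fold change of FPKM + 0.5, PIO minus control, for 31 of the 32 tested genes by role (points, with 95% limma intervals as bars); Rab5a, whose interval runs from -1.64 to 1.08, is left out. The intervals of Rab27b, Rab27a, Snap23, Nsf and Myo5a lie below 0, those of Stx6 and Vamp8 above 0, and no gene passes after adjustment.

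Set side by side, the genes with the lowest p-values did not all share 1 pattern over libraries. Rab27b, Snap23, Nsf and Myo5a each had PIO replicate 1 as the PIO library nearest the control values, and PIO replicates 2 and 3 below it. Rab27a did not share that order, with PIO replicate 2 the highest. Among the higher genes, PIO replicate 1 was also the PIO library nearest the control values in Stx6, Napa and Vamp8, narrowly so in Stx6 and Napa. For Rab11a it was PIO replicate 2 and for Syt11 PIO replicate 3. Stx6, Napa, Rab11a and Syt11 had 3 PIO values in a narrow band. Counting error alone gives them coefficients of variation of 5.03%, 2.68%, 2.91% and 3.1%, more than that spread. The narrowness is therefore not read as a trait of these genes. The labels give PIO replicate 1 the same dose and time as the other PIO libraries, and its part in these differences was not tested.

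**Figure D4:**
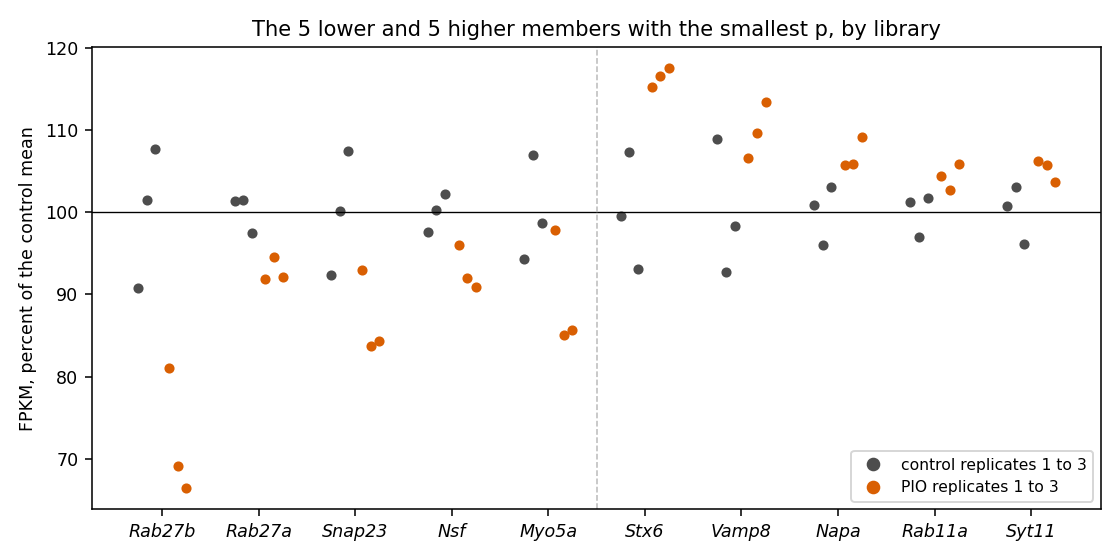
FPKM in each library as percent of the control mean for the 5 lower and 5 higher genes that have the smallest unadjusted p; in each gene the 3 control points stand left of the 3 PIO points, replicates 1 to 3 from left to right. The axis does not start at 0. Rab27b reaches down furthest, and for Snap23, Myo5a and Vamp8 the groups overlap.

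Promoters were compared over the 32 of 37 listed genes that matched a RefSeq promoter by GeneID. CACGTG was present in the 250 bases before the start of 7 of them (21.9%), namely Napa, Nsf, Rab5a, Scamp1, Snap29, Stx6 and Stxbp2, beside 5.59% of all 33469 promoters. These genes lay on both sides of 0 in their difference with PIO, Stx6 and Napa higher and Nsf lower. AGGTCA was present in 1 of the 32, Rab5a, beside 14.1% of all promoters, and CATGTG in none, beside 12.1%. The median GC content was 63.2% for the 32 windows and 51.2% for all, and its part in these shares was not tested. Stx6 is printed as the gene with the largest difference upward, with its CACGTG in capitals, at chr13:69882397-69882646 of GRCr8 on the plus strand; the motif begins 105 bases before the start.
Stx6: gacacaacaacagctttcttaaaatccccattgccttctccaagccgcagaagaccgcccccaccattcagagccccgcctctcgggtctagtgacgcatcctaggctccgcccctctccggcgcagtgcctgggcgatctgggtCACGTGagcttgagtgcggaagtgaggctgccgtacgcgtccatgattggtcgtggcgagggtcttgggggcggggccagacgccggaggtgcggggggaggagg
A match of letters is a description and not a site of binding.

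The wider machinery, a list of 148 further SNAREs, SNARE-handling proteins, Rabs, Rab effectors, synaptotagmins and exocyst subunits, was read from the same fit. Of these, 146 were listed in the deposited data and 91 were tested, and none passed (limma, Benjamini-Hochberg adjustment over all genes tested), nor with limma-voom. In sign 44 were higher and 47 lower (median log2 fold change -0.003), and 14 (15.4%) had an unadjusted limma p under 0.05, near the 12.5% of all genes tested. All PIO values lay above the control values for 12 (13.2%), beside 10.5% of all genes, and below for 12 (13.2%), beside 8.09%. Among the 3 higher ones of lowest p was Rab13, a Rab of tight junctions (6.94 ± 0.243 to 8.49 ± 0.447 FPKM, SD, n = 3 per group; log2 fold change 0.27, limma adjusted p = 0.28). Rab24, a Rab linked to autophagy, was another (18.3 ± 0.479 to 20.4 ± 0.539 FPKM, SD, n = 3 per group; log2 fold change 0.15, limma adjusted p = 0.318).

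The 3 lower were Rabs or a Rab regulator. Rab8b, of exocytic traffic, had 47.1, 52.4 and 49.9 FPKM in control and 44.7, 39.1 and 39.0 FPKM with PIO (limma adjusted p = 0.276, log2 fold change -0.28). Rab32, of lysosome-related organelles, had 89.5, 92.0 and 98.1 FPKM in control and 85.9, 79.1 and 78.1 FPKM with PIO (limma adjusted p = 0.29, log2 fold change -0.20). In both, as in Rab27b, PIO replicate 1 was the nearest to the control values and the groups did not overlap. Rab3gap2, a subunit of the GTPase-activating complex for Rab3, went from 16.0 ± 0.162 to 14.6 ± 0.468 FPKM (SD, n = 3 per group; -0.12, limma adjusted p = 0.371).

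Effectors known to bind Rab27 were unequal in level, and are named after their values were seen. Beside Unc13d, Sytl3 averaged 58.9 FPKM and Sytl2 2.90 FPKM. Sytl1 averaged 0.121 FPKM, Sytl4 was listed at 0, and Exph5 and Myrip had 1 read in 1 library each.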

How the data were processed

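RNA-seq was measured in 3 control and 3 PIO libraries of RBL-2H3 cells, made with a stranded mRNA kit per the labels' protocols. The authors deposited FPKM per gene and library. The submitters' processing notes name HISAT2 2.2.1.0 and BWA 0.7.5a, HTSeq, Cufflinks and DESeq, Trimmomatic 0.36 with FastQC 0.11.5, SAMtools 1.3.1, and the build GRCh38, which is human, although the table names rat genes. The build and annotation behind the FPKM are therefore unclear, which bears on levels between genes. GRCr8 was used for promoters and names only (20633 GeneIDs matched).

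FPKM were whole multiples of 1 read, so reads and counted lengths were recovered for 15429 genes, 100% of those above 0. The margin was 0.001 of a read, and wider at high reads. The shortest length that gave whole reads was kept, so reads and lengths are minima where a gene's reads share a factor. This matters most for genes of few reads, such as Rab5a. Recovered reads summed to 13980219 to 15012183 per library. A 0 allows up to 3 reads per library, which covers counting error only. Symbols that had turned into dates (27) were restored from the GeneID.

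Genes averaging at least 0.5 FPKM were tested on log2(FPKM + 0.5), a scale that understates changes of low genes, with limma 3.58.1 in R 4.3.3 (group as the only term, variance trend, two-sided, Benjamini-Hochberg adjustment over 10410 genes at 0.05). The code was tested on simulated data. The Rab27b to Rab27a ratio had an exact permutation test. Tables and figures were made with Python 3.11.15, numpy 2.4.6, pandas 2.3.3 and matplotlib 3.10.9. The rule for named genes gave every listed gene, library values for those that lead a class, for Rab27a and Rab27b and for the 5 of lowest p on either side, and from the wider list the 3 of lowest p on either side, 1 of which is not reported here. The 37 genes and the other lists were chosen with earlier results of these data known. Alternatives were a pseudocount of 0.1 or 1, a minimum mean of 1 or 5 FPKM or none, scaling by TPM, quantiles or median-of-ratios, no trend, robust fit, sample weights, limma-voom, a correction for gene length, a replicate block and each library left out.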

Additional observations from a re-analysis of the deposited data

How the results depend on the processing

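In 20 other settings none of the tested listed genes passed the threshold. The smallest limma adjusted p in any of them was 0.0828, for Rab27b without PIO replicate 1 (log2 fold change -0.55). Over the settings Rab27b ran from -0.55 to -0.409 (limma adjusted p = 0.0828 to 0.647), and Rab27a, Stx6, Snap23, Nsf, Myo5a, Napa and Vamp8 kept their sign. Vamp8 ran from 0.051 to 0.202. Its lowest value came with the correction for gene length (limma adjusted p = 0.613), against 0.1388 in the main fit. Of 634 values, 613 kept their direction and 21 turned, in 12 of the 32 genes. Cplx2 turned with median-of-ratios scaling (-0.0037), TPM scaling (-0.0235), limma-voom (-0.0001) and the length correction (-0.0152). Rab7a turned with sample weights (0.0012) and Scamp1 with TPM scaling (-0.0089). With 1 library left out, the other turns lay within the ranges -0.0517 to 0.0603 for Cplx2, -0.0331 to 0.0712 for Rab3d, -0.7341 to 0.039 for Rab5a, -0.0245 to 0.0042 for Rab7a, -0.0059 to 0.0833 for Scamp2, -0.0977 to 0.0256 for Stx11, -0.1157 to 0.0269 for Stx3, -0.0682 to 0.1434 for Stx7, -0.0087 to 0.1003 for Vamp2, -0.0041 to 0.0668 for Vamp3 and -0.0837 to 0.0393 for Vamp7. The cause was not tested. The median of the tested listed genes, 0.0103, was -0.0125 without a filter (35 of the 37 then tested), -0.0162 with TPM scaling, and -0.0006 to 0.033 with 1 library left out. Over all genes, the 4 calls became 1 without a filter, 2 without a variance trend, 7 with a robust fit, 7 with limma-voom, and 2 to 4 with 1 library left out. The Rab27b to Rab27a difference was -0.451 to -0.285 with 1 library left out.

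Replicate numbers are shared by the groups, but same-numbered libraries did not deviate together (correlations -0.06816, 0.0277 and 0.07761) and not every library correlated best with its own number, so they were not taken as pairs. With the replicate block 3 genes were called in place of 4, none of them listed here, and the Rab27b to Rab27a difference was -0.358 (exact sign-flip p = 0.25, the smallest that 3 pairs allow).

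At the depth of 13980219 to 15012183 recovered reads per library, the synaptotagmins other than Syt11, and Snap25, Mlph and Rab5a could not be compared.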
